A study of Mus musculus with 6 samples.

Results

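Odorant receptors are the G protein-coupled receptors with which olfactory sensory neurons (OSNs) detect odours. They were taken here as every probe set on a pair of Affymetrix mouse expression arrays, chip A and chip B, whose single gene symbol is Olfr followed by a number. That choice gave 43 probe sets for 38 receptor genes, of 45137 probe sets and of 18193 genes with a single symbol on the arrays. Chip A held 33 of the probe sets and chip B held 10, and Olfr78 was on both chips. The reference gene table lists 1117 genes with such symbols, so the arrays sampled 3.40% of the repertoire. RNA came from 3 sources in OMP-GFP mice, whose mature OSNs carry green fluorescent protein expressed from Omp, the olfactory marker protein gene. Mature OSNs were sorted by their green fluorescence (about 500000 cells), the residual epithelium was what remained of the olfactory epithelium without those cells (about 2500000 cells), and brain was taken without the olfactory bulbs. All 3 sources came from this line, and the labels do not say its zygosity, the age of the mice or how many animals were pooled. The sort did not use the receptors.

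In the mouse each mature OSN is known to express a single odorant receptor gene, from one allele, out of a very large family. An odorant bound by the receptor activates the olfactory G protein, adenylyl cyclase 3 and a cyclic nucleotide-gated channel in the cilia. Class I receptors resemble those of fish and lie together in one gene cluster, while class II receptors are spread over many clusters. Because the neurons that use a given receptor are few, its transcript is diluted in RNA from all OSNs.

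Each source was measured on 1 array per chip, so no difference has a replicate check and no test across samples could be made. Values are probe set signals, intensities on a linear scale, and they are compared between sources within a chip only. Before a ratio was taken, any signal under its chip's percentile 25, here the floor (70.6 for chip A, 79.9 for chip B), was raised to it, and "at least" marks a ratio with 1 signal there. Higher and lower are counted at 2-fold or more, and a gene with several probe sets was represented by the one with the highest mean signal percentile on its chip. Median signals of the arrays ran from 194.9 to 239.6 for chip A and from 224.5 to 257.5 for chip B, lowest in OSNs both times. Ratios of 100 probe sets present on both chips differed between chips with a standard deviation (SD) of 0.25 log2 units for OSNs over residual epithelium, 0.29 for OSNs over brain and 0.34 for residual epithelium over brain. The mean difference, chip B minus chip A, was -0.23, 0.19 and 0.42 log2 units. Different probe sets of one gene agreed less well. For 3257 pairs of them on 1 chip whose highest signal lay between 121.9 and 890.0, the span of most receptors, ratios differed with an SD of 0.89, 0.96 and 0.98 log2 units in those comparisons. A 2-fold ratio of a single receptor is close to that spread. Neither SD stands for the spread between animals.

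Odorant receptors were higher in sorted OSNs than in either other source. The OSN signal was the highest of the 3 for 35 of 38 receptors (92.1%), against 31.2% of all genes. The residual signal was the highest for 2, Olfr157 and Olfr159 (34.1% of all genes), and the brain signal for 1, Olfr558 (34.7%). Olfr157, Olfr159 and Olfr64, which is among the 35, were under the floor in all 3 sources, so their signals have no order. Of the 38 receptors, 24 (63.2%) were at least 2-fold higher in the OSNs than in the residual epithelium and none was at least 2-fold lower, where 9.49% of all genes were higher and 14.0% lower. Against brain 26 (68.4%) were at least 2-fold higher and none lower, where the background was 13.6% higher and 15.9% lower. The median log2 ratio of the 38 was 1.37 against residual epithelium and 1.60 against brain, and that of all genes was 0.00 in both. These counts include every receptor, whatever its signal. The same 24 receptors that were 2-fold higher than in residual epithelium were also 2-fold higher than in brain, where 5.11% of all genes were, but both comparisons use the same OSN array. In RNA from mixed cells, fewer cells of a type and less RNA per cell cannot be told apart.

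**Figure D1:**
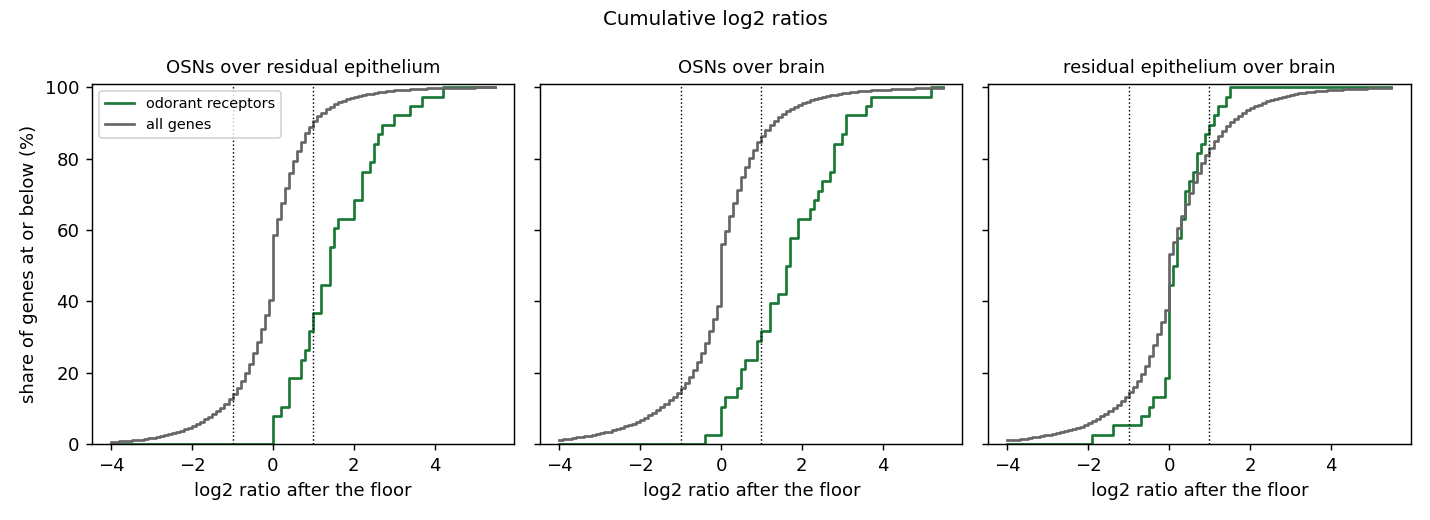
Cumulative share of genes (vertical axis, percent) at or below each log2 ratio (horizontal axis) for the 38 odorant receptors (green) and all 18193 genes (grey), with dotted lines at 2-fold. In both OSN comparisons the receptor curve lies to the right of that of all genes, with medians of 1.37 and 1.60, and between residual epithelium and brain the receptor curve is the steeper one and ends at 1.45.

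Markers of mature OSNs were highest in the sorted cells. Omp gave a signal of 11057.4 in OSNs, against 248.8 in residual epithelium and 201.4 in brain, which follows from the sort and is no finding. Whether the probes lie in the part of Omp that this line alters is not known here. All 6 markers of mature OSNs, Omp included, were higher in OSNs than in both other sources, and their summed signal was 164664.3 in OSNs, against 4385.0 in residual epithelium and 3837.3 in brain. Such sums add signals of both chips where a list spans them, and bright probe sets weigh most in them. Immature OSNs, which lack Omp, are known to start expressing a receptor as they mature. The 7 markers of immature OSNs summed to 23365.2 in OSNs, compared with 49514.5 in residual epithelium and 19803.9 in brain, with 3 of 7 lower and none higher in OSNs than in residual epithelium. The 7 markers of blood cells summed to 943.9 in OSNs, against 65059.3 in residual epithelium and 789.1 in brain, and 7 of 7 were lower in OSNs than in residual epithelium. Markers of supporting and gland cells summed to 11615.1 in OSNs, compared with 70120.6 in residual epithelium and 1047.5 in brain, with 5 of 7 lower in OSNs than in residual epithelium. Bpifb9b alone gave 39507.5 of that residual sum. Cyp2g1 was not lower, with 3821.8 in OSNs, against 2657.3 in residual epithelium and 102.7 in brain, nor was Cyp1a2, with 424.4, 334.7 and 16.4. Markers of basal cells and progenitors summed to 822.9 in OSNs, against 7585.2 in residual epithelium and 2836.4 in brain, with 5 of 7 lower in OSNs than in residual epithelium. Of 5 measured brain neuron markers, which summed to 28884.3 in OSNs, compared with 4580.9 in residual epithelium and 48775.9 in brain, 3 were lower in OSNs than in brain, as were 5 of 5 brain glia markers, which summed to 5284.3 in OSNs, against 1566.4 in residual epithelium and 37815.6 in brain. The part of these cells in the receptor ratios was not tested.

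Most receptor signals outside the OSNs were low. In OSNs 35 of 38 receptors had a signal above the floor (79.5% of all genes) and 26 reached the chip median, against 57.5% of all genes at the median. In residual epithelium 28 were above the floor (82.6% of all genes) and 5 reached the median, against 62.3% of all genes. In brain 23 were above the floor (82.2% of all genes) and 3 reached the median, against 61.5% of all genes. The signals of the 38 ran from 5.8 to 2583 with a median of 347.8 in OSNs, from 9.4 to 400.9 with a median of 102.5 in residual epithelium and from 3.9 to 397.9 with a median of 96.0 in brain. Residual signals of 10 receptors and brain signals of 15 were at or under the floor. A signal 2-fold lower in OSNs could be seen only where the other signal was at least 2 times the floor. That held for 15 of 38 receptors in residual epithelium and 8 of 38 in brain, against 71.2% of all genes in each. The absence of lower receptors therefore says little about the rest of the 38.

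**Figure D2:**
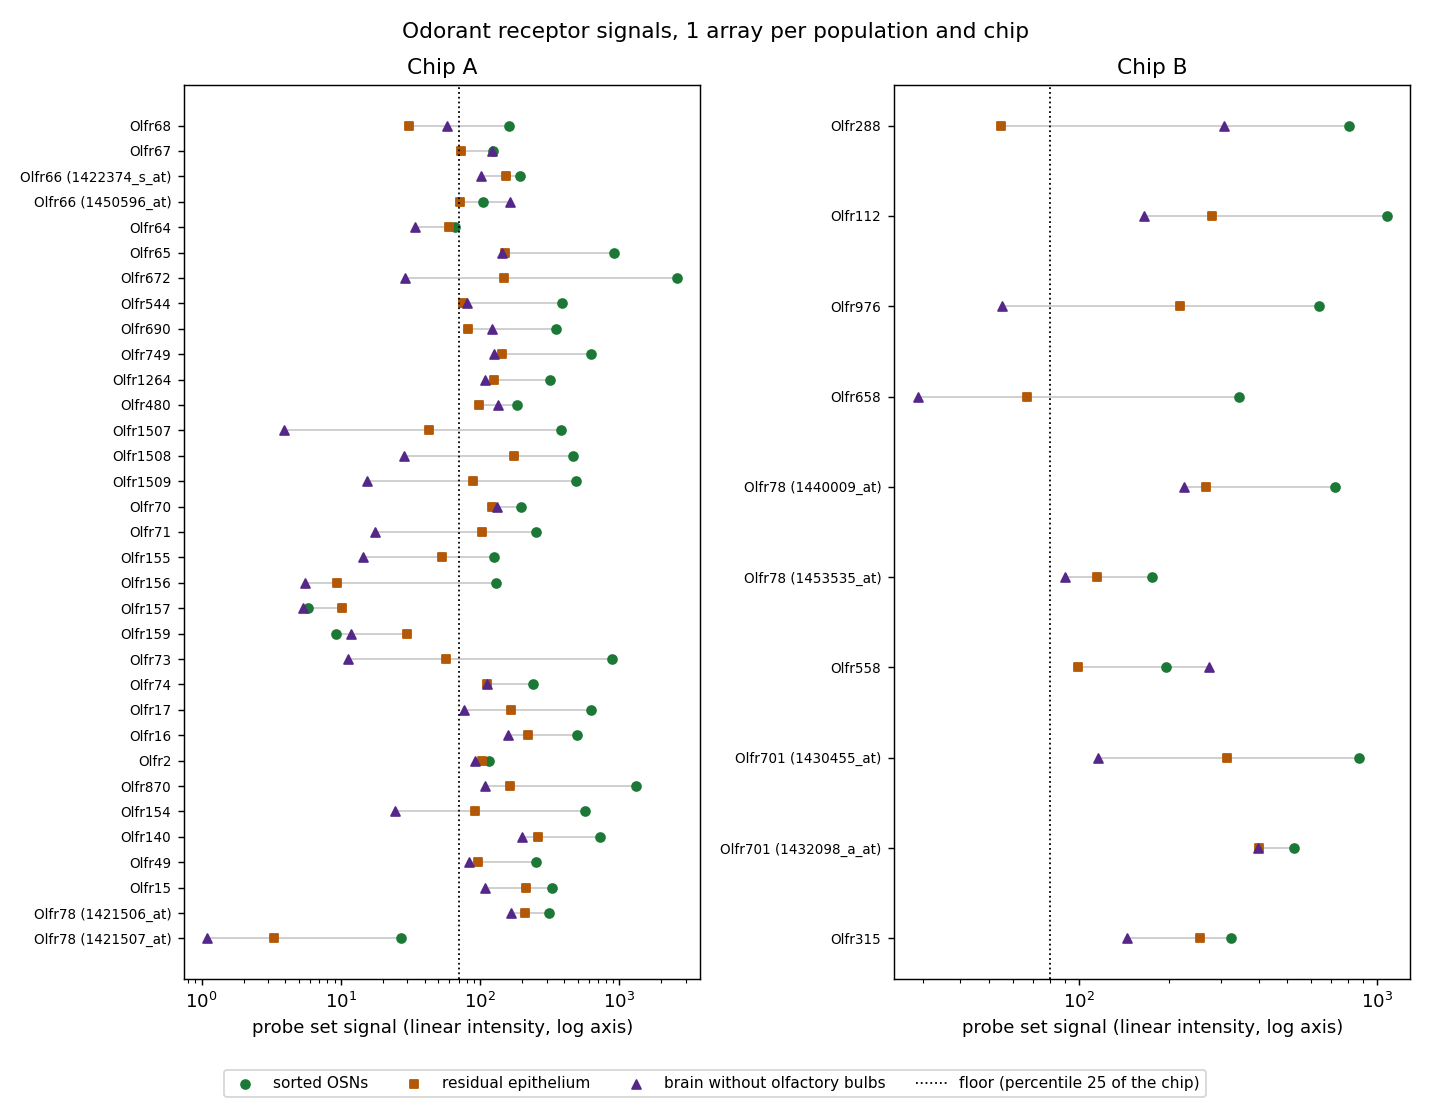
Probe set signals (horizontal axis, linear intensity on a log axis) of all 43 odorant receptor probe sets in sorted OSNs (green circles), residual epithelium (brown squares) and brain (purple triangles), with the floor of each chip as a dotted line (70.6 and 79.9). OSN signals stand to the right in 39 of 43 probe sets, and the highest residual and brain signals of any receptor are 400.9 and 397.9.

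The receptors first cloned from single neurons that responded to aliphatic acids and alcohols formed the group with Olfr672, which had the largest ratio of the 38 in both OSN comparisons. These are the 6 genes with an Ors name, and 5 of 6 were at least 2-fold higher in the OSNs than in both other sources. Olfr672 (Ors46, class I) gave a signal of 2583.3 in OSNs, against 149.3 in residual epithelium and 28.9 in brain. It was 17.3-fold higher in the OSNs than in the residual epithelium and at least 36.6-fold higher than in brain. For Olfr544 (Ors6), a class I receptor known to bind azelaic acid, the signals were 387.8 in OSNs, against 75.2 in residual epithelium and 80.9 in brain, a ratio of 5.16-fold and 4.79-fold. The 2 lower values stood just above the floor. Olfr690 (Ors18, class I) had 352.7 in OSNs, against 82.0 in residual epithelium and 122.3 in brain. Olfr749 (Ors1, class II) had 627.0 in OSNs, compared with 144.0 in residual epithelium and 126.4 in brain. Olfr1264 (Ors16, class II) had 319.4 in OSNs, against 125.0 in residual epithelium and 109.1 in brain. All 3 were highest in OSNs, by 4.30-fold, 4.35-fold and 2.56-fold over residual epithelium. Olfr480 (Ors25, class II) was the exception, with 183.6 in OSNs, against 97.7 in residual epithelium and 135.2 in brain, within 2-fold in both comparisons.

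The MOR28 cluster was higher in OSNs for each of its 3 measured genes. Olfr1507 (Mor28), Olfr1508 (Mor10) and Olfr1509 (Mor83) are class II receptors that stand next to each other with no annotated gene between them, and the enhancer known as the H element acts on this cluster. Olfr1507 gave a signal of 378.6 in OSNs, compared with 42.6 in residual epithelium and 3.9 in brain. With both lower signals under the floor, its ratios are bounds of at least 5.36-fold. Olfr1508 had 461.1 in OSNs, against 175.2 in residual epithelium and 28.2 in brain, so it was 2.63-fold higher in the OSNs than in the residual epithelium and at least 6.53-fold higher than in brain. Olfr1509 had 487.6 in OSNs, compared with 88.4 in residual epithelium and 15.4 in brain, so it was 5.52-fold and at least 6.91-fold higher. Brain was under the floor for all 3, and residual epithelium was above it for Olfr1508 and Olfr1509.

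Odorant receptor promoters are known for homeodomain sites, bound by factors such as LHX2 and EMX2, and for sites of the O/E (EBF) factors. The RefSeq table of promoters (GRCm38.p6), which gives 250 bases before and 50 after each annotated start, held 30 windows for 29 of the 38 receptors. Both strands were searched for the homeodomain-type motifs TAATGA and TAATTA, the palindromic O/E motif (TCCC, any 2 bases, GGGA) and the TATA-box motif TATAAA. No match of one overlapped a match of another in the receptor windows. TAATGA was found in 8 of 30 receptor windows (26.7%), against 28.9% of 914 windows of other Olfr genes and 9.78% of all 32851 windows. TAATTA was found in 2 (6.67%), against 19.0% and 5.29%, and TATAAA in 9 of 30, against 41.6% and 13.6%. The O/E motif was found in none of the 30, against 0.547% of other Olfr windows and 0.904% of all windows. In 10 of the 30 windows the annotated start was the letters of a start codon, ATG, as in 73.9% of other Olfr windows and 5.83% of all, so those windows may not contain the true transcription start.

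TAATGA or TAATTA lay before a start that was not ATG in 6 receptors. Of these, 4 were at least 2-fold higher in the OSNs than in both other sources, as were 24 of all 38 (63.2%). A link between motif and signal was not tested. The 250 bases before the start of these 4 are shown as examples, so they were chosen by their OSN ratios. Capitals mark the homeodomain-type motif, written TCATTA where it lies on the opposite strand, and each sequence runs 5′ to 3′ on the strand of its gene. The bases of Olfr1509 are chr14:52450143-52450392 (plus strand) and those of Olfr1508 are chr14:52467462-52467711 (minus strand), both within the annotated interval of the T cell receptor alpha locus, Tcra. Those of Olfr749 are chr14:50744325-50744574 (minus strand), which overlap no annotated gene, and those of Olfr16 are chr1:172956518-172956767 (plus strand), within the interval of the gene model Gm35686.
Olfr1509: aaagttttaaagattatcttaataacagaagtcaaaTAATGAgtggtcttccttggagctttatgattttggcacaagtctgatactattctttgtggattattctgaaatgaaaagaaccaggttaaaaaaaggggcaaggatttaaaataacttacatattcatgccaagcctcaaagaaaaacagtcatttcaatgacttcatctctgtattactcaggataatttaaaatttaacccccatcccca
Olfr1508: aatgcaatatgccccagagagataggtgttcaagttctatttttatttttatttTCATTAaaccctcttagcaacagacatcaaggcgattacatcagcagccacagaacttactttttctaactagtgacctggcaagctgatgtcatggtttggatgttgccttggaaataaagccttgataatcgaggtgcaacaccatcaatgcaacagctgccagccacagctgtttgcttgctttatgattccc
Olfr749: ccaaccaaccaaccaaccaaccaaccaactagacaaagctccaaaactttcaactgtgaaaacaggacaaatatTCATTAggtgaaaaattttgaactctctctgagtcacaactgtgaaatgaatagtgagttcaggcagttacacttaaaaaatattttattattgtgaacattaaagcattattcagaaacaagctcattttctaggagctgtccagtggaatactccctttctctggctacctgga
Olfr16: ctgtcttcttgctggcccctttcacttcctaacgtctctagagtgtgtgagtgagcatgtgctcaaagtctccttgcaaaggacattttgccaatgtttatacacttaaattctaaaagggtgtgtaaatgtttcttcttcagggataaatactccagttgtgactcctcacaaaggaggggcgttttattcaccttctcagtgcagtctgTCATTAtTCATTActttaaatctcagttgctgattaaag
The match began 214 bases before the start in Olfr1509, 196 in Olfr1508 and 176 in Olfr749, and Olfr16 had a pair, 39 and 32 bases before it. Olfr1508 and Olfr1509 each held 1 more match after the start, outside the bases shown. The other 2 receptors of the 6 were Olfr156 and Olfr701. A match is a description of these letters and no evidence of a bound site.

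**Figure D3:**
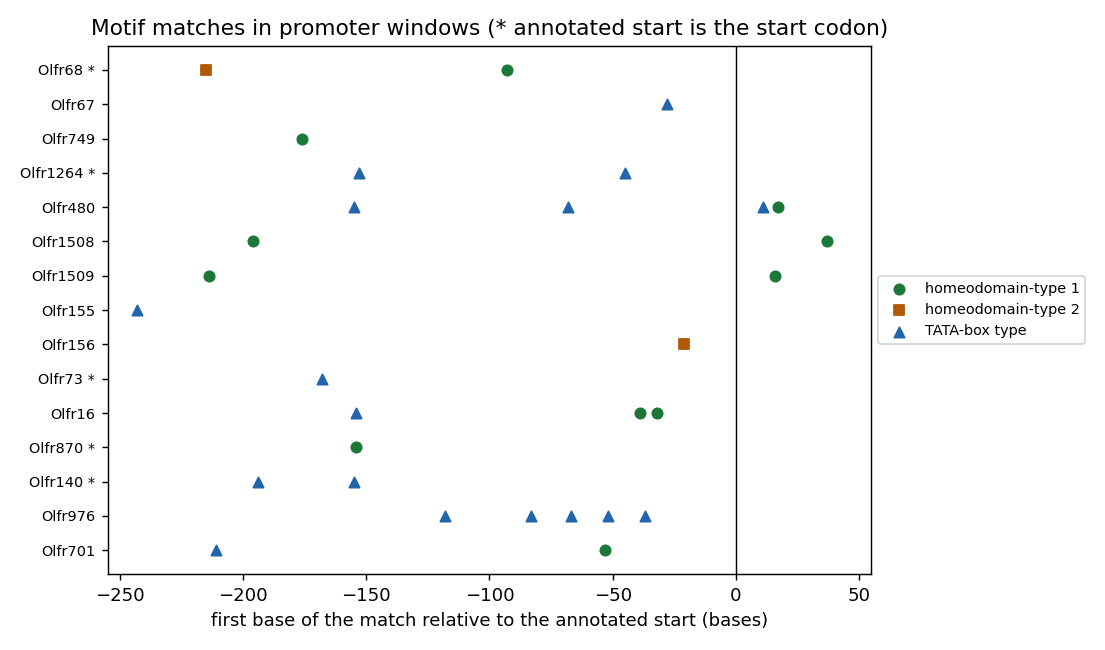
First base of each motif match (horizontal axis, bases relative to the annotated start) in the promoter windows of the receptors that held one, with TAATGA as green circles, TAATTA as brown squares and TATAAA as blue triangles. Matches are scattered over the window, and Olfr976 has 5 TATAAA matches between 118 and 37 bases before its start.

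In a group of 5 other receptors, each known by a ligand or from axon guidance work, 4 were higher in OSNs, all but Olfr2. Receptors of other groups, such as Olfr544, also have a known ligand. Olfr73, the eugenol receptor mOR-EG, gave a signal of 880.7 in OSNs, compared with 56.5 in residual epithelium and 11.2 in brain, so it was at least 12.5-fold higher in the OSNs than in each. Olfr74 (mOR-EV), which responds to ethyl vanillin and belongs to the same family, MOR174, had 240.8 in OSNs, against 111.9 in residual epithelium and 112.3 in brain, a ratio of 2.15-fold and 2.14-fold. The 2 genes lie close together, with 4 annotated genes between them, yet the lower signals of Olfr73 were under the floor and those of Olfr74 above it. Olfr17, the P2 receptor used in studies of how OSN axons find their glomeruli, had 627.2 in OSNs, against 165.1 in residual epithelium and 76.0 in brain, and was 3.8-fold and 8.25-fold higher. Olfr16 (MOR23), a receptor for lyral that is also known from sperm, had 492.2 in OSNs, compared with 219.1 in residual epithelium and 158.4 in brain, and was 2.25-fold and 3.11-fold higher. Both showed OSNs highest and brain lowest. Olfr2 (I7), whose rat counterpart responds to the aldehyde octanal, had 116.6 in OSNs, compared with 102.4 in residual epithelium and 91.4 in brain, all within 1.28-fold of one another.

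The MOR262 family had low signals throughout, with 1 of 6 at least 2-fold higher in OSNs. The mOR37 receptors among them are known for their expression in a patch in the centre of the epithelium in place of a broad zone. Olfr155 (mOR37a) gave a signal of 125.4 in OSNs, compared with 53.6 in residual epithelium and 14.4 in brain. Olfr156 (mOR37b) had 130.1 in OSNs, against 9.4 in residual epithelium and 5.5 in brain. Both were above the floor in OSNs only, and their bounds of at least 1.78-fold and 1.84-fold did not reach 2-fold because the OSN signals stood so near the floor. Olfr157 (Olfr37c) had 5.8 in OSNs, compared with 10.1 in residual epithelium and 5.3 in brain, and Olfr159 (mOR37e) had 9.2 in OSNs, against 29.7 in residual epithelium and 11.9 in brain. These 2 were under the floor in all 3 sources and their signals have no order. Olfr71 (mOR17) had 253.6 in OSNs, against 102.6 in residual epithelium and 17.7 in brain, and was 2.47-fold and at least 3.59-fold higher in OSNs. Its immediate neighbour Olfr70 (mOR6) had 196.6 in OSNs, compared with 121.5 in residual epithelium and 131.6 in brain, within 2-fold of both. The 6 genes lie on 1 stretch of chromosome, with at most 4 annotated genes between any 2 that follow each other.

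**Figure D4:**
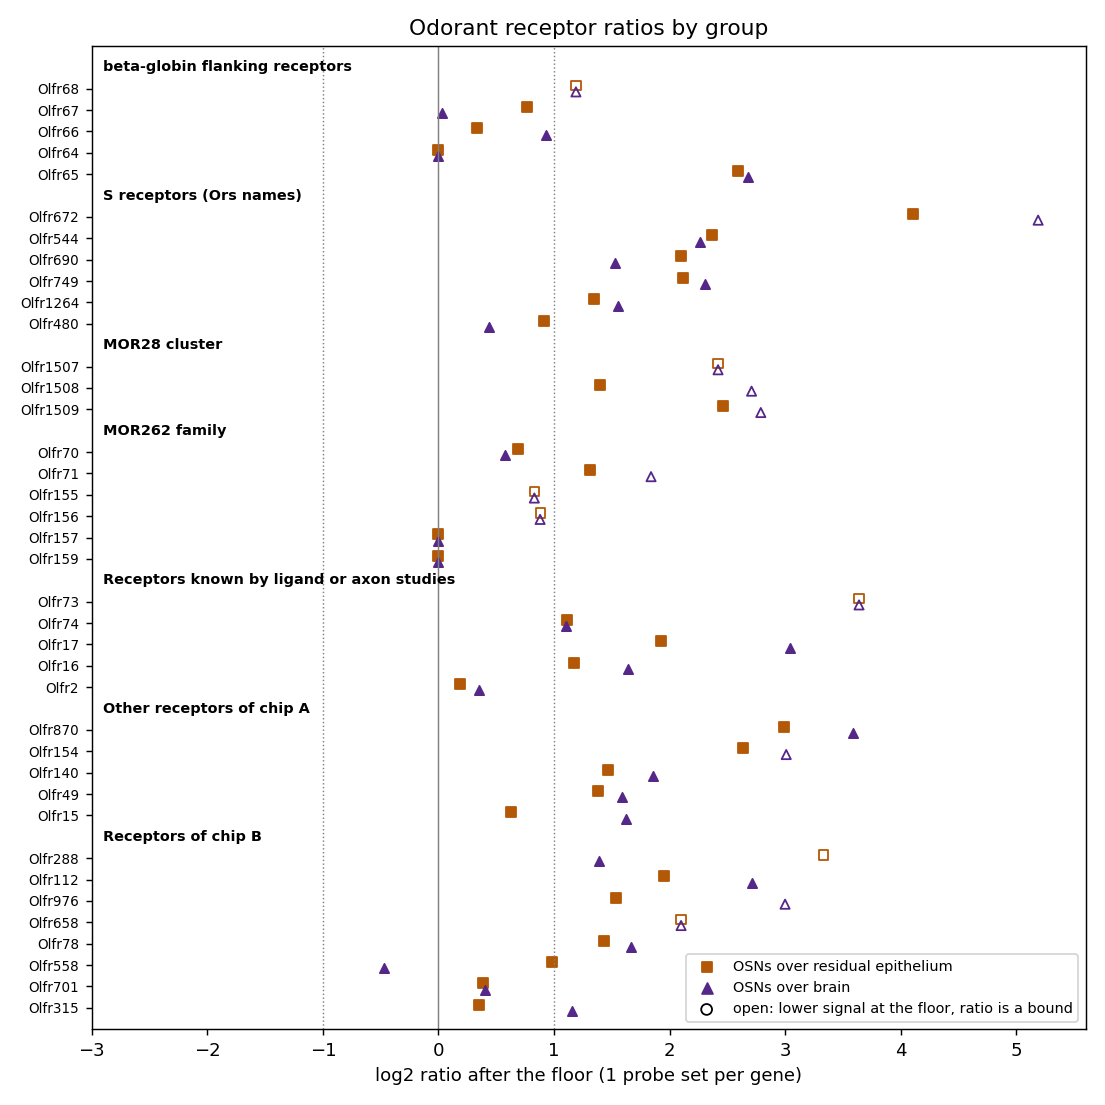
Log2 ratios (horizontal axis) of the 38 odorant receptors, 1 probe set per gene and grouped as in the text, for OSNs over residual epithelium (brown squares) and OSNs over brain (purple triangles). Open symbols are bounds, dotted lines mark 2-fold, and Olfr672 stands farthest to the right at 4.11 and 5.19 while Olfr558 alone lies left of 0, at -0.47 against brain.

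Receptors that flank the β-globin genes were split, with 2 of 5 higher in OSNs. These class I receptors lie on both sides of the globin locus. Olfr65 gave a signal of 911.7 in OSNs, compared with 151.4 in residual epithelium and 142.4 in brain, and was 6.02-fold and 6.40-fold higher in OSNs. Olfr68 had 161.3 in OSNs, compared with 30.7 in residual epithelium and 57.4 in brain, at least 2.28-fold higher than in each. Probe sets that hold the symbols of both Olfr68 and Olfr69 are outside these counts and are given at the end. Olfr67, the neighbour of Olfr68, had 124.2 in OSNs, compared with 73.0 in residual epithelium and 122.0 in brain, so the OSN and brain signals were nearly equal. Olfr64, the neighbour of Olfr65 with which it shares the synonyms MOR1-1 and MOR1-2, had 65.5 in OSNs, against 60.1 in residual epithelium and 34.0 in brain, under the floor in all 3. Olfr66 had 2 probe sets that did not rank the sources alike. The one ending in _s_at, which marks probes shared with other transcripts, had 191.7 in OSNs, compared with 152.5 in residual epithelium and 100.5 in brain, and the other had 104.9 in OSNs, against 72.1 in residual epithelium and 162.9 in brain, with brain highest.

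Among the other receptors of chip A, 4 of 5 were at least 2-fold higher in the OSNs than in the residual epithelium and 5 of 5 than in brain. Olfr870 gave a signal of 1303.6 in OSNs, against 164.4 in residual epithelium and 107.9 in brain, and was 7.93-fold and 12.1-fold higher. Olfr154 had 569.9 in OSNs, against 91.2 in residual epithelium and 24.5 in brain, 6.25-fold and at least 8.07-fold higher. These 2 class II genes were at least 4-fold higher in both comparisons. Olfr140 had 720.4 in OSNs, compared with 260.4 in residual epithelium and 198.2 in brain, and Olfr49 had 250.6 in OSNs, compared with 96.1 in residual epithelium and 83.4 in brain. They were 2.77-fold and 2.61-fold higher in the OSNs than in the residual epithelium. Olfr15 had 329.9 in OSNs, against 213.0 in residual epithelium and 107.5 in brain, so it was 3.07-fold higher in the OSNs than in brain, and 1.55-fold higher than in residual epithelium.

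Of the 8 receptors represented on chip B, 5 were at least 2-fold higher in the OSNs than in the residual epithelium and 6 than in brain. Olfr112 gave a signal of 1079.6 in OSNs, compared with 279.5 in residual epithelium and 164.8 in brain, 3.86-fold and 6.55-fold higher. Olfr976 had 637.5 in OSNs, compared with 218.8 in residual epithelium and 55.2 in brain, 2.91-fold and at least 7.98-fold higher. For both the order was OSNs, residual epithelium, brain. Olfr658, a class I receptor, had 342.9 in OSNs, against 66.9 in residual epithelium and 28.7 in brain, and was above the floor in OSNs only. Olfr315 had 324.4 in OSNs, compared with 254.1 in residual epithelium and 144.8 in brain, so it was 2.24-fold higher than in brain and 1.28-fold higher than in residual epithelium. The probe sets of Olfr701 disagreed, with 869.3 in OSNs, against 314.7 in residual epithelium and 115.8 in brain for one (2.76-fold and 7.51-fold) and 525.7 in OSNs, compared with 400.9 in residual epithelium and 397.9 in brain for the other (1.31-fold and 1.32-fold). The second represents the gene in the counts, as its mean signal percentile was higher.

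The last of the chip B receptors include a pair known outside the nose, and of this pair Olfr78 was at least 2-fold higher in OSNs and Olfr558 was not. Olfr78 (MOR18-2, the mouse counterpart of human PSGR) is known from the carotid body and kidney, and Olfr558 (MOR18-1), a class I gene 3 annotated genes away, from blood vessels. Olfr558 gave a signal of 195.9 in OSNs, compared with 99.4 in residual epithelium and 271.9 in brain. It was the only receptor whose representative probe set was highest in brain, by 1.39-fold over OSNs and 2.74-fold over residual epithelium, and its OSN signal was 1.97-fold above that of residual epithelium. Olfr78 had 719.9 in OSNs, against 267.1 in residual epithelium and 225.5 in brain on its representative probe set of chip B, 2.70-fold and 3.19-fold higher in OSNs. A second probe set on chip B had 175.6 in OSNs, compared with 114.9 in residual epithelium and 89.6 in brain, and the pair on chip A had 313.0 in OSNs, against 211.3 in residual epithelium and 167.3 in brain, and 26.8 in OSNs, compared with 3.3 in residual epithelium and 1.1 in brain, the last of them under the floor. The 3 probe sets above the floor ranked OSNs above residual epithelium and brain lowest, and 1 of 4 probe sets reached 2-fold. Olfr288 (class II) had 803.2 in OSNs, against 54.6 in residual epithelium and 306.2 in brain. It was at least 10.1-fold higher in the OSNs than in the residual epithelium and 2.62-fold higher than in brain, so its brain signal stood at least 3.83-fold above that of residual epithelium.

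Between residual epithelium and brain no receptor was 4-fold higher (5.84% of all genes), and the count of those 2-fold higher depended on the floor. Of the 38, 4 (10.5%) were at least 2-fold higher in residual epithelium, where 17.1% of all genes were, and 2 were at least 2-fold lower, where 14.6% were. The median log2 ratio was 0.13, and 9 receptors were at the floor in both sources. The 4 higher ones were Olfr976 (at least 2.74-fold), Olfr1508 (at least 2.48-fold), Olfr17 (2.17-fold) and Olfr672 (at least 2.11-fold), and the 2 lower ones were Olfr288 and Olfr558. With the floor at percentile 10 the number higher was 11 of 38 (28.9%), above the 19.8% of all genes, and with the floor at percentile 40 it was 0, against 14.6% of all genes. The share of receptors therefore lay below or above that of all genes depending on the floor. After the floor at percentile 25, the residual signal was above the brain signal for 21 receptors (46.9% of all genes) and below it for 8 (41.3%).

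Median ratios of the receptor classes lay close together. By the MOR numbers in their names, 11 receptors were class I and 25 were class II. The other 2 (Olfr16 and Olfr49) were left without a class, as no hyphenated MOR number is given for them. Class I receptors were at least 2-fold higher in the OSNs than in the residual epithelium for 7 of 11 and than in brain for 7 of 11, with median log2 ratios of 1.43 and 1.53. Class II receptors were higher for 15 of 25 and 17 of 25, with medians of 1.35 and 1.62. Ratios ran from 0.00 to 4.11 in class I and from 0.00 to 3.64 in class II against residual epithelium. By chip, 19 of 30 receptors of chip A and 5 of 8 of chip B were higher than in residual epithelium. The difference between classes was not tested.

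Other genes of the receptor pathway were taken from a list. Of 14 measured genes of odour transduction, 12 were at least 2-fold higher in the OSNs than in the residual epithelium and 13 than in brain. None was lower, and the median log2 ratios were 3.45 and 3.18. Omp, Cnga2, Cnga4, Adcy3 and Gnal of this list are also among the markers of mature OSNs above, so the 2 results are not separate. Cnga4, a subunit of the cyclic nucleotide-gated channel, had 22365.8 in OSNs, compared with 270.1 in residual epithelium and 8.8 in brain, a ratio of 82.8-fold over residual epithelium. The lowest ratio of the list against residual epithelium was that of Slc12a2, a chloride cotransporter, at 6203.8 in OSNs, compared with 4378.9 in residual epithelium and 2067.4 in brain (0.50 log2 units). Of 18 measured genes of receptor trafficking and receptor choice, 4 were higher and 4 lower in OSNs than in residual epithelium (median log2 ratio 0.02), and 10 were higher and 2 lower than in brain (median 1.65). Adcy3, the adenylyl cyclase, which was in both lists, had the highest ratio of this list over residual epithelium (18.3-fold), with 13951.9 in OSNs, against 762.3 in residual epithelium and 590.5 in brain. Lbr, the lamin B receptor gene, had the lowest, with 573.0 in OSNs, against 3301.5 in residual epithelium and 452.4 in brain, a log2 ratio of -2.53. The residual epithelium also had the higher blood and progenitor marker signals given above, and the part of those cells in these ratios was not tested.

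Receptors of the vomeronasal organ and other chemoreceptors were mostly too dim for a comparison. Of 25 vomeronasal type 1 receptors (Vmn1r) none was at least 2-fold higher or lower in OSNs than in residual epithelium or brain, but 19 of 25 were under the floor in all 3 sources, which fixes their ratios at 0. The same held for 6 type 2 receptors (Vmn2r), of which 4 were above the floor, and for 2 Fpr-rs genes. Taar1, the trace amine-associated receptor measured, was at least 3.01-fold higher than in residual epithelium, with 212.8 in OSNs, compared with 34.2 in residual epithelium and 177.5 in brain. Ms4a genes were taken by name only, so they need not all be chemoreceptors. Among 17 of them 1 was higher and 5 were lower in OSNs than in residual epithelium, where 9.49% and 14.0% of all genes were. None of the 17 was 2-fold apart from brain.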

How the data were processed

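Gene expression was measured in sorted OSNs, residual epithelium and brain on 1 array each of chip A and chip B (6 arrays). The deposited values are probe set intensities on a linear scale. Per the submitters' processing notes the authors computed them with MAS5, which is not named for the brain array of chip A and has no version there. The target of the scaling and any detection calls are not stated there. Scaling of every array to a common level means that amounts per cell cannot be compared. The number of arrays limits the precision.

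Control probe sets (64 per chip) were left out, which leaves 22626 on chip A and 22511 on chip B. Of these 45137, 35041 had 1 symbol, 936 several and 9160 none in the platform annotation, and 34837 were matched by Entrez identifier to the GRCm38.p6 RefSeq table. Probe sets with several symbols gave no gene name. A genome build for the probe sets is not stated. Signals were raised to the floor, percentile 25 of a chip, and log2 ratios were taken within a chip, with no signal filter. Every receptor is named, along with Omp, the genes with the highest and lowest ratio of each pathway list and some markers. Cngb1 has a log2 ratio of 0.51 and is the next lowest of its list. No gene list test was run, as there is 1 sample per group. Protein sequences were not used here. The members and lists were chosen with earlier results of these data known. Class was read from hyphenated MOR numbers in the RefSeq synonyms. That form, the signal span for pairs of probe sets, how receptors were grouped in the text and which promoters to print were settled after their values were seen. The computation was tested on simulated data, first with changes in genes with a mean log2 signal above 9, where none of the 38 receptors lies, and then with changes at the receptors' own signals. At those signals the floor hid many of the decreases. Alternatives were other floors, a pseudocount of 100, signal filters, centring, quantile normalization, scaling on shared probe sets, other treatments of several probe sets and other fold limits. The software was Python 3.11.15 with pandas 2.3.3 and numpy 2.4.6, and matplotlib 3.10.9 drew the plots.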

Additional observations from a re-analysis of the deposited data

Results flagged for a closer look

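The receptors described above leave out 4 probe sets that hold an odorant receptor symbol, 3 with a pair of symbols and 1 for a pseudogene, and in each the OSN signal was above that of both other sources. They were looked at because they lie outside the comparisons. Of a pair of probe sets that both hold the symbols Olfr69 and Olfr68, one gave 341.7 in OSNs, against 9.5 in residual epithelium and 13.0 in brain. It was at least 4.82-fold higher in the OSNs than in each. The other gave 485.1 in OSNs, against 75.6 in residual epithelium and 8.2 in brain, 6.41-fold and at least 6.87-fold higher. A probe set with the symbols Olfr151 and Olfr160 gave 267.4 in OSNs, against 57.6 in residual epithelium and 5.9 in brain, at least 3.78-fold higher in the OSNs than in each. None of these can be given to one receptor. The pseudogene Olfr75-ps1 gave 175.8 in OSNs, against 145.3 in residual epithelium and 133.6 in brain, within 2-fold. No replicate backs these values.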

How the results depend on the processing

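Under 13 alternatives chosen with earlier results known, no receptor with a 2-fold ratio changed direction, and none was 2-fold lower in OSNs than in either other source. Other floors, the pseudocount, the filters and the fold limits cannot reverse the order of 2 signals, so for them the direction was fixed beforehand. Centring on the median of all genes left the receptor counts and median ratios unchanged, as that median was already 0.00 in each comparison. Other treatments of several probe sets could change few receptors, as 35 of 38 had 1 probe set. OSN signals stayed the highest for 35 of 38 receptors with quantile normalization and for 34 with arrays scaled on the shared probe sets. Counts of 24 and 26 receptors higher in OSNs moved furthest where the alternative itself is stricter. With a 3-fold limit they were 14 and 20. With the signal filter at percentile 75 they were 11 of 11 in both comparisons (15.7% and 22.6% of all genes), but all 11 passed through the OSN signal only, so their high ratios are built in and lend no support. Medians for OSNs over residual epithelium and over brain were 1.08 and 1.15 with the floor at percentile 40, 1.01 and 1.14 with a pseudocount of 100, 1.94 and 2.10 with the filter at the chip median and 2.12 and 2.71 with the filter at percentile 75. The filtered medians are likewise raised by selection, as 21 of 26 and 24 of 27 receptors passed the median filter through OSNs only. For residual epithelium over brain, the receptors higher and lower (4 and 2) were 11 and 2 with the floor at percentile 10, 0 and 0 with it at percentile 40, 2 and 1 with the pseudocount, 0 and 2 with the filter at the chip median, 9 and 3 with a 1.5-fold limit and 0 and 1 with a 3-fold limit. No receptor passed the percentile 75 filter in that comparison. No paired analysis was possible because each group is 1 array. Of 994 values of single receptors recomputed, 174 moved by more than the SD between chips and 0 changed sign after passing 2-fold. The floors, the pseudocount and the filters could not give such a change of sign. Most receptor signals lay near the floor, which limits their ratios, and binding of probes to closely related receptors was not tested.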
